A study of Homo sapiens with 56 samples.

Results

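The comparison was between PEO1 cells held for 3 h with the antagonist labelled ICI and PEO1 cells held with its vehicle, on 8 of the 56 arrays of the series. PEO1 is an established line of high-grade serous ovarian carcinoma, and ICI is the estrogen receptor antagonist fulvestrant. The members were taken by their labels: 4 arrays of cells given 1 uM ICI without estradiol (E2) and 4 of cells given ethanol. All cells had first spent 3 days without hormone, in phenol red-free IMEM with charcoal-stripped serum. A further 4 PEO1 arrays labelled 0 h, of cells deprived in the same way, gave the starting level. The remaining PEO1 groups were also of 4 arrays at 3 h. They received 1 nM E2, 1 uM ICI with 1 nM E2, 1 uM 4-hydroxytamoxifen (4OHT), or 1 uM 4OHT with 1 nM E2. The last group entered only the fit. The same groups existed in PEO4, another ovarian carcinoma line, where those with ICI, vehicle and 1 nM E2 are compared below. PEO1 stands for 1 cell line, and no label says whether the replicates A to D were separate cultures, so the p-values measure the spread between these arrays.

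Fulvestrant binds estrogen receptor alpha, blocks its activation and leads to destruction of the receptor protein. Bound receptor otherwise sits at estrogen response elements, often far from the gene, and recruits coactivators that raise transcription within hours. Charcoal stripping takes most steroid out of serum, and the comparison asks which transcripts an antagonist still moves when no estradiol is added. Vehicle cells can themselves change over the treatment time, so each level was read against both vehicle and 0 h.

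The arrays carried most markers of the labelled cell type. In the vehicle arrays 13 of 15 Müllerian and ovarian carcinoma markers had a mean log2 value above every array's median, among them the transcription factors PAX8 (10.96) and WT1 (11.44), while SOX17 (3.99) and LHX1 (5.35) were low. All 10 epithelial markers were above it, between 9.50 and 13.81. Of 10 stromal markers COL1A1 (8.32) and THY1 (11.49) were above it and the others ran down to 2.44, and none of 8 leukocyte (3.17 to 7.03) or 5 endothelial markers (3.98 to 6.07) was. RMA values hold no detection calls, so a low value is not shown to be background. None of the 48 measured Müllerian, epithelial, stromal, leukocyte or endothelial markers was called by limma between ICI and vehicle, and 1 had an unadjusted p under 0.05. Array medians of the 12 arrays at 0 h, with vehicle and with ICI ran from 7.42 to 7.49, and arrays of a group correlated at 0.998 or more. The difference between 3′ and 5′ probe sets of ACTB, a measure of RNA integrity, lay between -0.16 and 0.05.

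ICI alone changed few transcripts. Of 11963 genes tested with limma, 16 passed a Benjamini-Hochberg adjusted p of 0.05, which is 0.134% of genes. Of these, 14 were lower with ICI (0.117%) and 2 were higher (0.0167%). At an unadjusted p under 0.05 there were 558 genes (4.66%), 395 lower (3.3%) and 163 higher (1.36%), where chance alone would give 598. In 313 genes (2.62%) all 4 ICI arrays lay below all 4 vehicle arrays, and in 136 (1.14%) above. All values below are log2 RMA expression values or differences of them, with the SE of the fit and n = 4 arrays a group, and all adjusted p-values are from limma. The genes that fell were GREB1, CBLN1, CISH, MYC, ID4, TRPC6, MYBL1, PELI1, ZBTB7C, KAZN, BMP2, PLAT, KCNF1 and INHBB, and those that rose were PCDH9 and DKK1.

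**Figure D1:**
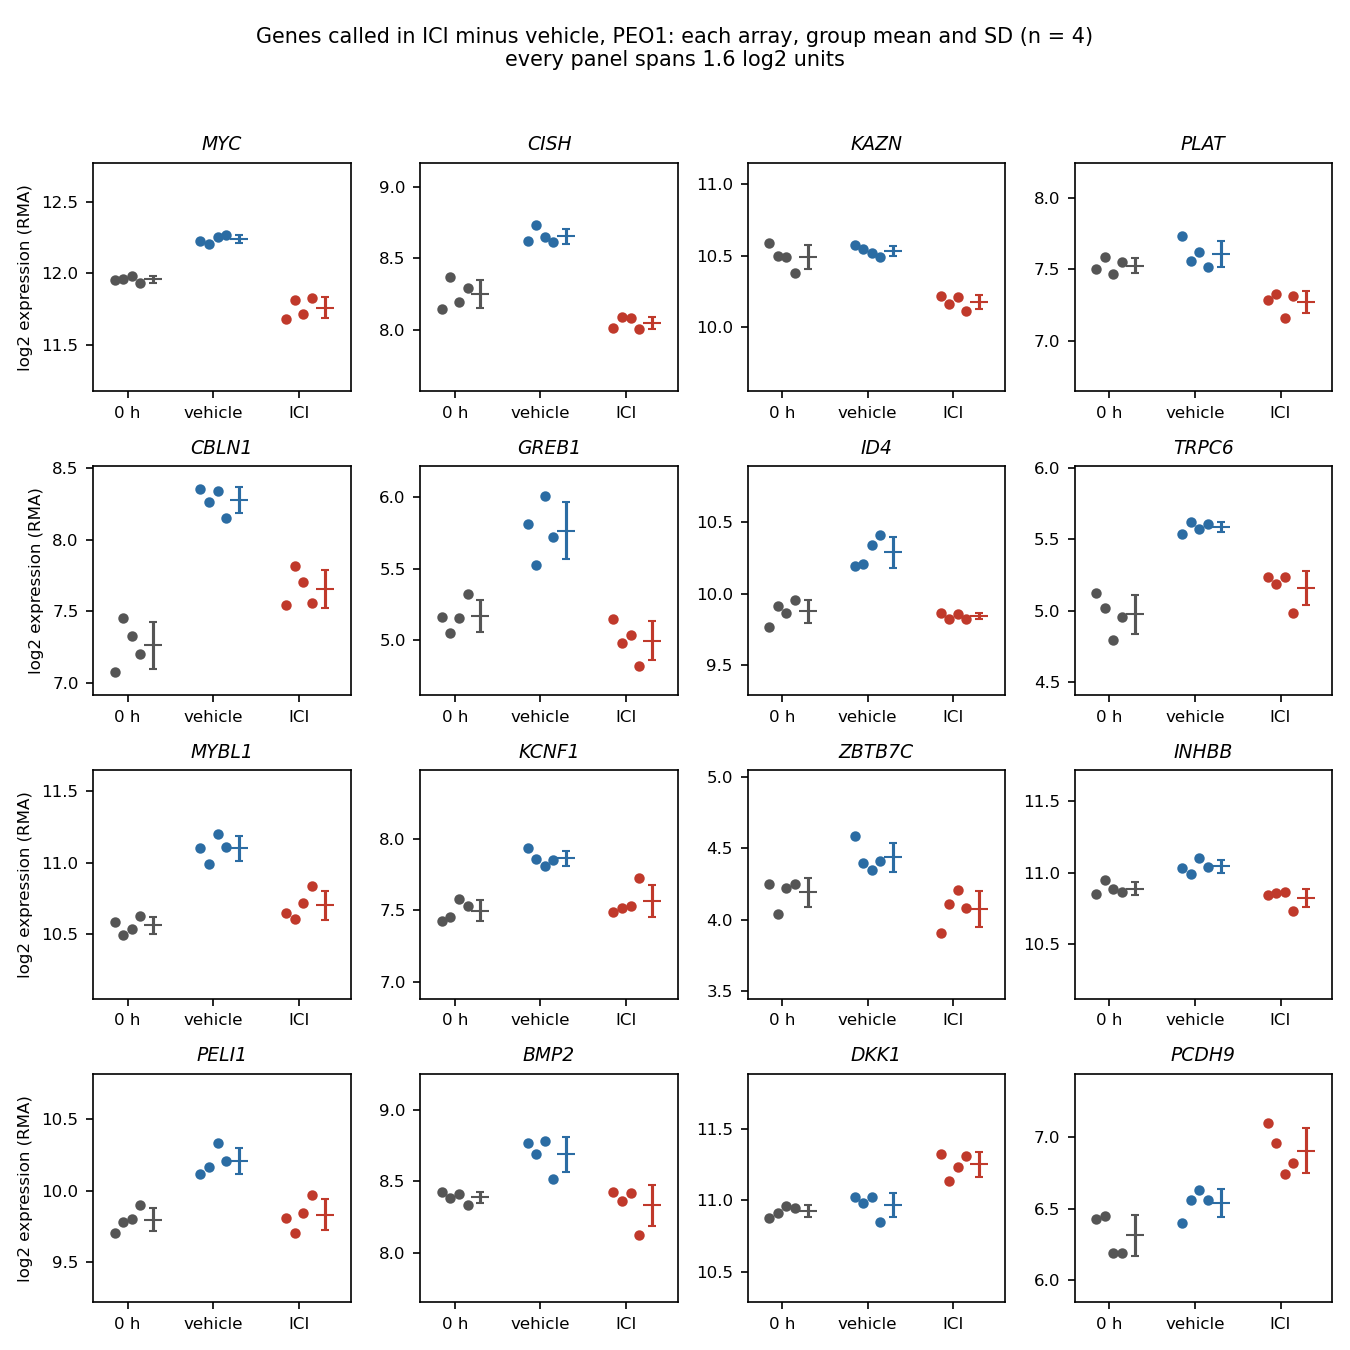
Log2 RMA expression (y axis) of the 16 called genes in each PEO1 array at 0 h (grey), with vehicle for 3 h (blue) and with ICI for 3 h (red); points are arrays A to D from left to right, and the bar beside them is the mean with SD (n = 4). For the 14 genes that fell, every ICI point lies below every vehicle point.

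Promoter sequence was available in RefSeq (GRCh38.p14) for 10 of the 16 genes, and the 250 bases before each start were searched on both strands. The estrogen response element half-site, read as GGTCA or TGACC, occurred in at least 1 window of 6 genes, all of them among the 8 genes with a window that fell. Over 9563 genes tested with a window, 38.2% had one. The palindrome GGTCANNNTGACC was in none of the 15 windows of called genes and in 0.0399% of all 35116 windows. CISH is shown because it had the smallest p among the genes with a window, and TRPC6 and KCNF1 as examples with a half-site in their single window. The search for TTCNNNGAA, the letters read by STAT factors, was added after the CISH sequence was seen, so its count there is not a test. It occurs 4 times there, and 4 or more occur in 0.0285% of windows of genes tested and in 0.0142% of all windows. In CISH (chr3:50611775-50612024, minus strand) the capitals mark these 4 matches, which start at -241, -230, -129 and -112. In TRPC6 (chr11:101584008-101584257, minus strand) and KCNF1 (chr2:10911684-10911933, plus strand) they mark the half-sites, which start at -199 and -173. The matches describe letters and show no binding.
CISH: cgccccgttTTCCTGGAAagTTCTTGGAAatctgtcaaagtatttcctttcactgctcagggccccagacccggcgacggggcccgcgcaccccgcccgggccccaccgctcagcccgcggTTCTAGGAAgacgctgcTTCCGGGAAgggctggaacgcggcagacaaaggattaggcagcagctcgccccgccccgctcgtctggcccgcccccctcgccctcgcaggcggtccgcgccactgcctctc
TRPC6: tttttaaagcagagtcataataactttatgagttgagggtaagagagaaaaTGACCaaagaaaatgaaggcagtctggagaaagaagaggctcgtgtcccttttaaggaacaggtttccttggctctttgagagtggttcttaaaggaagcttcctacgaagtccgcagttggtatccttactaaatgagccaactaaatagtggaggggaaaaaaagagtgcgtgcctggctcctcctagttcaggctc
KCNF1: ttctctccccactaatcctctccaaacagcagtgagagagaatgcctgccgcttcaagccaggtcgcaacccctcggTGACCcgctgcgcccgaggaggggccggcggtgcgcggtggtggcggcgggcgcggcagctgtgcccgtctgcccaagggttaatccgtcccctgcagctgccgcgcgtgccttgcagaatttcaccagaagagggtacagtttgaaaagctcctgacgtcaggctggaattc

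The genes that fell below their level at 0 h were 4 in number. MYC, the transcription factor that drives growth and ribosome synthesis, had values of 12.22, 12.20, 12.25 and 12.26 in the vehicle arrays and of 11.68, 11.81, 11.71 and 11.83 in the ICI arrays. At 0 h it stood at 11.95, 11.96, 11.98 and 11.93, so the groups did not overlap and the ICI arrays were lowest. ICI minus vehicle was -0.48 ± 0.04, a 1.39-fold lower level (adjusted p = 5.77e-08), and ICI minus 0 h was -0.20 ± 0.04 (adjusted p = 0.00244). Vehicle had risen by 0.28 ± 0.04 over 0 h (adjusted p = 4.38e-05).

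CISH, an inhibitor of cytokine receptor and STAT5 signalling, followed the same order. Its values were 8.62, 8.73, 8.65 and 8.61 with vehicle, 8.01, 8.09, 8.08 and 8.01 with ICI, and 8.15, 8.37, 8.19 and 8.29 at 0 h. Again no ICI array reached the lowest array of either other group. The difference from vehicle was -0.61 ± 0.05 (1.52-fold, adjusted p = 1.08e-07), and that from 0 h was -0.20 ± 0.05 (adjusted p = 0.0213). Without the 0 h replicate B or D, or with only the compared groups in the fit, ICI minus 0 h was no longer called, and CISH then counted as a blocked rise.

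KAZN and PLAT fell below 0 h without any called rise in vehicle. KAZN, which encodes the junction-associated protein kazrin, had 10.57, 10.55, 10.52 and 10.49 with vehicle, 10.22, 10.16, 10.21 and 10.11 with ICI, and between 10.38 and 10.59 at 0 h. Vehicle and 0 h overlapped, at a difference of 0.04 ± 0.05 (adjusted p = 0.756), and all ICI arrays lay below both. ICI minus vehicle was -0.36 ± 0.05 (adjusted p = 0.000719) and ICI minus 0 h was -0.32 ± 0.05 (adjusted p = 0.000327). PLAT, tissue plasminogen activator, had 7.73, 7.56, 7.62 and 7.52 with vehicle, 7.28, 7.33, 7.16 and 7.31 with ICI, and 7.47 to 7.59 at 0 h. It too was lowest in all 4 ICI arrays, by -0.34 ± 0.06 against vehicle (adjusted p = 0.00301) and -0.26 ± 0.06 against 0 h (adjusted p = 0.00413). Other, dimmer KAZN probe sets gave -0.18 and -0.09 against vehicle, and -0.22 and -0.02 against 0 h. The call of KAZN was lost when the probe sets of a gene were averaged (-0.21, adjusted p = 0.0616). That of PLAT was lost when only the compared groups were fitted (adjusted p = 0.134).

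A blocked rise was seen in 9 genes, that is, vehicle was called above 0 h and ICI was not called against 0 h. GREB1, an estrogen-induced cofactor of the receptor, showed the largest difference of all called genes. Its vehicle values were 5.81, 5.53, 6.01 and 5.72, those with ICI were 5.15, 4.98, 5.03 and 4.82, and those at 0 h were 5.16, 5.05, 5.16 and 5.32. The vehicle arrays stood apart, while the ICI and 0 h arrays overlapped. ICI minus vehicle was -0.77 ± 0.09 (1.71-fold, adjusted p = 2.81e-05), vehicle minus 0 h was 0.60 ± 0.09 (adjusted p = 0.000147), and ICI minus 0 h was -0.18 with a 95% interval from -0.37 to 0.02. A smaller fall below 0 h is therefore within that interval. The 2 other GREB1 probe sets on the array differed by 0.00 and -0.03 between ICI and vehicle, so the fall was seen in 1 of 3. The first of them was brighter over the PEO1 arrays, at a mean of 5.80 against 5.59 for the one used. The choice between them was made by the mean over the arrays of both lines. With the probe sets averaged the fall was -0.27 (adjusted p = 0.0188).

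ID4, an inhibitor of helix-loop-helix transcription factors, had 10.20, 10.21, 10.34 and 10.41 with vehicle, 9.87, 9.82, 9.86 and 9.82 with ICI, and 9.77, 9.91, 9.87 and 9.95 at 0 h. ICI and 0 h arrays were intermixed, and all vehicle arrays were higher. The fall was -0.45 ± 0.06 against vehicle (adjusted p = 0.000463), and ICI minus 0 h was -0.03 (95% interval -0.16 to 0.10). The other 2 ID4 probe sets gave -0.37 and -0.40 against vehicle, of which the first was also called when all probe sets were tested. BMP2, a ligand of the pathway that induces ID genes, had 8.77, 8.69, 8.78 and 8.51 with vehicle, 8.43, 8.36, 8.41 and 8.12 with ICI, and 8.33 to 8.42 at 0 h. Its fall was -0.36 ± 0.07 (adjusted p = 0.0334), with ICI minus 0 h at -0.06 (-0.21 to 0.09), and its second probe set gave -0.34. INHBB, the beta B subunit of activins and inhibins, was lower by a smaller amount, -0.22 ± 0.04 (adjusted p = 0.0313).

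The other blocked rises were TRPC6, MYBL1, KCNF1, PELI1 and ZBTB7C. TRPC6, a receptor-operated cation channel, had 5.54 to 5.62 with vehicle, 5.23, 5.19, 5.23 and 4.98 with ICI, and 4.80 to 5.13 at 0 h. Its difference from vehicle was -0.42 ± 0.07 (adjusted p = 0.00326), and its 95% interval against 0 h, 0.04 to 0.33, lay above 0 although the adjusted p was 0.125. A second, dimmer TRPC6 probe set gave -0.18 against vehicle. MYBL1, the transcription factor A-MYB, differed by -0.40 ± 0.07 from vehicle (adjusted p = 0.0183) and by 0.14 (-0.01 to 0.29) from 0 h. KCNF1, a modulatory potassium channel subunit, differed by -0.30 ± 0.06 (adjusted p = 0.0225) and 0.07 (-0.05 to 0.18). PELI1, a ubiquitin ligase of innate immune signalling, gave -0.37 ± 0.08 (adjusted p = 0.0313) and 0.04 (-0.12 to 0.19). ZBTB7C, a zinc finger gene, gave -0.36 ± 0.07 (adjusted p = 0.0246) and -0.11 (-0.26 to 0.03), at low values between 3.91 and 4.59 in these 12 arrays.

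CBLN1 belonged to neither class. This secreted synaptic organiser of the C1q family made the largest move of vehicle over 0 h among the 16 genes, from 7.07, 7.46, 7.33 and 7.20 to 8.35, 8.27, 8.34 and 8.15 with vehicle. With ICI it reached 7.54, 7.82, 7.71 and 7.56, below all vehicle arrays and above all 0 h arrays, an order against 0 h that 9.05% of all genes showed. ICI minus vehicle was -0.62 ± 0.07, a 1.54-fold lower level (adjusted p = 7.47e-06), and ICI minus 0 h was 0.39 ± 0.07 (adjusted p = 0.000624).

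Over the 14 genes that fell, vehicle was called above 0 h for 12, where 5.79% of all genes were called higher, 1.64% lower and 7.43% in either direction. ICI was called below 0 h for 4, where 2.05% of all genes were, against 4.79% above it and 6.84% in either direction. In 12 of the 14 all vehicle arrays lay above all 0 h arrays (10.9% of all genes), and in 4 all ICI arrays lay below all 0 h arrays (4.99%). The comparisons share arrays, and a gene chosen for being higher with vehicle than with ICI is more likely to be high in vehicle against 0 h as well, so these counts describe the 14 genes and are not a separate test. Over all genes, vehicle minus 0 h called 693 higher and 196 lower (491 and 346 after quantile normalization), and ICI minus 0 h called 573 higher and 245 lower (473 and 368 after it). Under the alternative settings MYC, KAZN and PLAT were below 0 h in all 12 settings in which the class was recomputed, and TRPC6 was called above 0 h with array weights. That class did not require a call against vehicle in the same setting, and KAZN and PLAT each lost theirs in 1. INHBB and ZBTB7C counted as blocked rises in only 6 of the 12. INHBB did not after quantile normalization, with only the compared groups, with an ACTB covariate or without 0 h replicate A, C or D. ZBTB7C did not with trended and robust variance, with only the compared groups, with the ACTB covariate or without 0 h replicate B or C, and it was not fitted with dim genes left out.

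**Figure D2:**
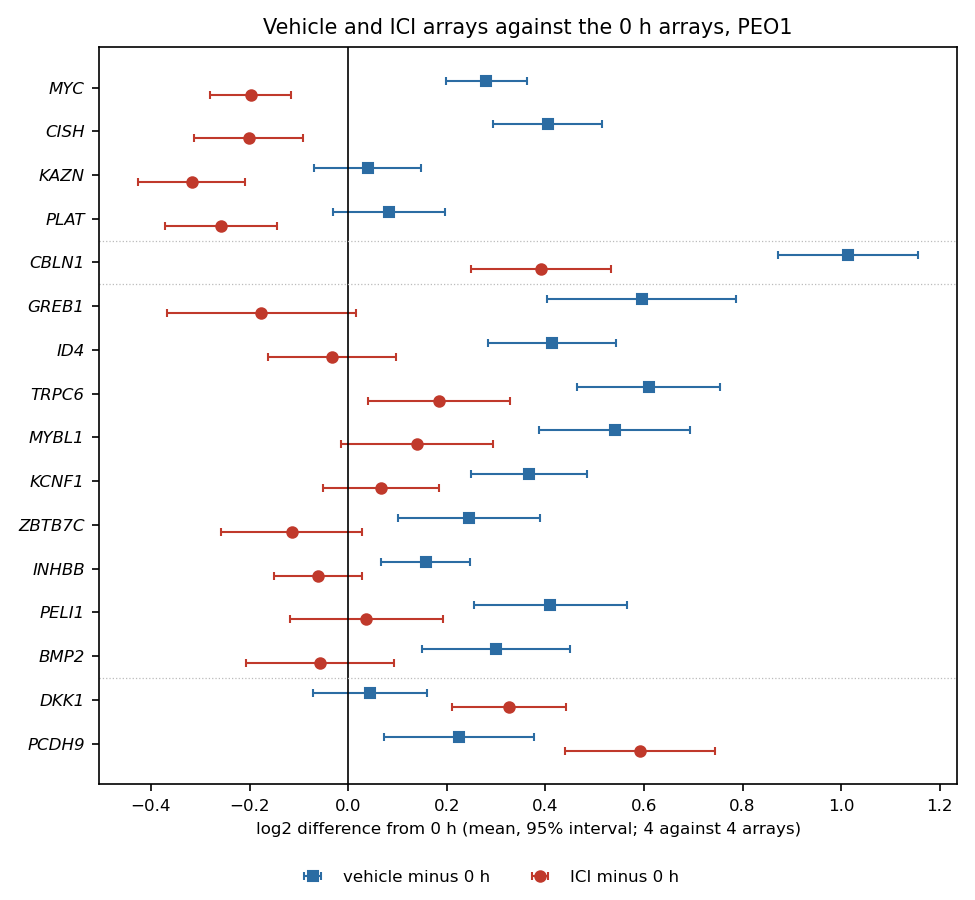
Log2 difference from the 0 h arrays (x axis) of the vehicle arrays (blue squares) and the ICI arrays (red circles) for the 16 called genes, with 95% intervals of the limma fit (4 against 4 arrays). The top 4 genes have ICI intervals below 0, CBLN1 has both intervals above 0, and the ICI intervals of 8 of the 9 genes below it include 0.

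Both genes that rose with ICI also stood above 0 h. DKK1, a secreted inhibitor of Wnt signalling, had 11.32, 11.14, 11.23 and 11.31 with ICI, against 11.02, 10.98, 11.03 and 10.85 with vehicle and 10.88, 10.91, 10.96 and 10.95 at 0 h. No ICI array overlapped either group, and vehicle did not differ detectably from 0 h (0.04 ± 0.06). PCDH9, a protocadherin, had 7.10, 6.96, 6.74 and 6.82 with ICI, 6.40, 6.56, 6.63 and 6.56 with vehicle, and 6.42, 6.45, 6.19 and 6.19 at 0 h. ICI minus vehicle was 0.28 ± 0.06 for DKK1 and 0.37 ± 0.07 for PCDH9, each with an adjusted p of 0.0313, and ICI minus 0 h was 0.33 and 0.59. A second PCDH9 probe set gave 0.08 against vehicle.

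The calls that held without any single array numbered 8 of 16: MYC, CISH, CBLN1, GREB1, ID4, KAZN, PLAT and TRPC6. The other 8 (MYBL1, KCNF1, ZBTB7C, INHBB, PELI1, BMP2, DKK1 and PCDH9) each lost the call without 5 to 7 of the 8 arrays, with unchanged sign. Leaving out vehicle replicate A, or ICI replicate A, ended all 8, at adjusted p-values of 0.0617 to 0.23 and of 0.0569 to 0.22. The calls ended numbered 7 without ICI replicate B or vehicle replicate D, 6 without vehicle replicate B, 5 without vehicle replicate C, 4 without ICI replicate D and 3 without ICI replicate C. The genes next in order of p had values on the other side of the same line: KLF4, a Krüppel-like factor (-0.28 ± 0.06, adjusted p = 0.0574), FLG, filaggrin (-0.37 ± 0.08, 0.0614), and the kinase gene SIK1 (0.23 ± 0.05, 0.114). Others of the next 10 were STC2, a stanniocalcin (-0.25 ± 0.06, 0.121), and CHST10, RASGRP1, SLC22A5 and B4GAT1, with differences from -0.28 to -0.17, while SLC2A6 and RANBP6 had 0.15 and 0.33. A second STC2 probe set gave -0.06.

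The receptor transcript itself was not called. ESR1, which encodes estrogen receptor alpha, had 11.29, 11.29, 11.35 and 11.34 with vehicle, 11.30, 11.15, 11.27 and 11.24 with ICI, and 11.55, 11.51, 11.50 and 11.57 at 0 h. ICI and vehicle overlapped, at -0.08 ± 0.04 (unadjusted p = 0.0391, adjusted p = 1), and every array of both lay below 0 h. Vehicle minus 0 h was -0.22 ± 0.04 (adjusted p = 0.000246) and ICI minus 0 h was -0.29 ± 0.04 (adjusted p = 4.74e-06). The other ESR1 probe sets were dimmer, with PEO1 means of 7.70 or less against 11.29. Their vehicle minus 0 h differences were of both signs, from -0.14 to 0.25. Transcript arrays do not report the receptor protein. ESR2 (-0.08 ± 0.09), the progesterone receptor gene PGR (-0.06 ± 0.08, at 3.16 to 3.51 in these 12 arrays), the cyclin gene CCND1 (0.00 ± 0.07) and IGFBP3 (0.06 ± 0.05) were not called either. CA12, a carbonic anhydrase and common estrogen-induced gene, had -0.19 ± 0.05 (adjusted p = 0.327), with all 4 ICI arrays (8.56 to 8.64) below all 4 vehicle arrays (8.74 to 8.85).

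Among genes known to be induced by estrogen, 46 of 50 listed were measured and 6 fell: GREB1, MYC, CISH, MYBL1, KCNF1 and PLAT, where 0.117% of all genes were called lower. None rose, and 14 of the 46 were lower at an unadjusted p under 0.05, against 3.3% of all genes. Their median difference was -0.056, against -0.015 over all genes, and 37 of 46 were below 0, against 61.6% of all genes. The list was drawn up with earlier results of these arrays known. Of the 18 measured estrogen-repressed genes limma called none, 2 were higher and 2 lower at an unadjusted p under 0.05, and their median was 0.012. The lower ones were DDIT4 and KLF4, and KLF4 was among the genes that E2 raised in PEO4. None of the 8 steroid receptor genes, 19 receptor coregulators or 14 chaperones was called, with 1, 1 and 0 lower at that unadjusted p. Their smallest adjusted p belonged to TFAP2C, a transcription factor that works beside the receptor (-0.15, 0.556).

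The fall of MYC was not accompanied by calls among its partners or targets at 3 h. Of 12 genes of the MYC network only MYC was called, and its antagonist MXD1 had -0.27 (adjusted p = 0.74). None of 19 MYC target and ribosome biogenesis genes was called by limma, 1 was lower at an unadjusted p under 0.05, and their median was -0.015. The ribosome assembly gene RRS1 had the smallest p of them (-0.09, adjusted p = 0.904). The 31 genes of G1/S and DNA replication and the 22 of mitosis held no call, with medians of -0.014 and -0.007 and with 3 and 1 lower at an unadjusted p under 0.05.

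Over all genes 0.117% were called lower and 0.0167% higher, and 3.3% and 1.36% were so at an unadjusted p under 0.05. Of 22 genes of cytokine receptor feedback only CISH was called, and its relative SOCS2 had 0.17 (adjusted p = 0.358). At that unadjusted p 1 of the 22 was lower and 1 higher. Among 20 genes of the BMP, SMAD and ID group ID4 and BMP2 were called lower and none higher. SMAD7, a feedback inhibitor, had 0.25 (adjusted p = 0.179), and 3 of the 20 were lower and 1 higher at the unadjusted p. Of 23 Wnt pathway genes only DKK1 was called, and WNT4 had -0.25 (adjusted p = 0.56). Here 3 were lower and 1 higher at the unadjusted p. The 25 immediate early genes held no call, with 1 higher and 2 lower at an unadjusted p under 0.05, although FOS had -0.41 (adjusted p = 0.666). With only the compared groups in the fit FOS was among the genes called. The 15 genes of the insulin-like growth factor axis, 18 of the unfolded protein and integrated stress response, 22 of proteasome and ubiquitin, 11 of cholesterol synthesis, 7 of the aryl hydrocarbon receptor and 13 of the circadian clock held none, and at most 1 gene of each had an unadjusted p under 0.05.

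Adding E2 made the effect of ICI larger for some of these genes. The ICI with E2 and E2 arrays are separate from the 8 above, and ICI with E2 minus E2 called 299 genes (2.5%), 183 lower (1.53%) and 116 higher (0.97%). It called 13 of the 14 genes lower again, and both DKK1 (0.23) and PCDH9 (0.44) higher. The exception was ZBTB7C, at 0.07 ± 0.07. Its arrays with E2 alone (4.26, 4.16, 4.18 and 4.17) also lay below all its vehicle arrays (4.35 to 4.59). The interaction, which tests whether the ICI effect differed with E2, was called for 44 genes (0.368%), 39 of them lower under E2 (0.326%) and 5 higher (0.0418%). Among the 14, 6 were called, all with the larger fall under E2: GREB1, KCNF1, PLAT, KAZN, CISH and INHBB.

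GREB1 had the widest gap. Its values reached 7.77, 7.76, 7.83 and 7.59 with E2 and returned to 5.61, 5.36, 5.53 and 5.24 with ICI and E2. Those last values overlap the vehicle arrays and lie above all arrays with ICI alone. The ICI effect was -2.30 ± 0.09 with E2 and -0.77 without it, an interaction of -1.53 ± 0.13 (adjusted p = 3.76e-08). For KCNF1 the effect was -1.13 with E2 (interaction -0.83 ± 0.08, adjusted p = 3.47e-07), and for CISH -1.07 (interaction -0.46 ± 0.08, adjusted p = 0.0015). For ID4 the falls were -0.43 with and -0.45 without E2, and E2 minus vehicle was 0.12 (adjusted p = 0.507). TRPC6 and MYBL1 had interactions of -0.08 ± 0.10 and -0.04 ± 0.11, and MYC -0.11 ± 0.06, none of them called. A missing call does not show that the effects were alike. E2 minus vehicle, which shares the vehicle arrays, was called higher for 10 of the 14, where 1.56% of all genes were called higher, 0.527% lower and 2.09% in either direction.

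**Figure D3:**
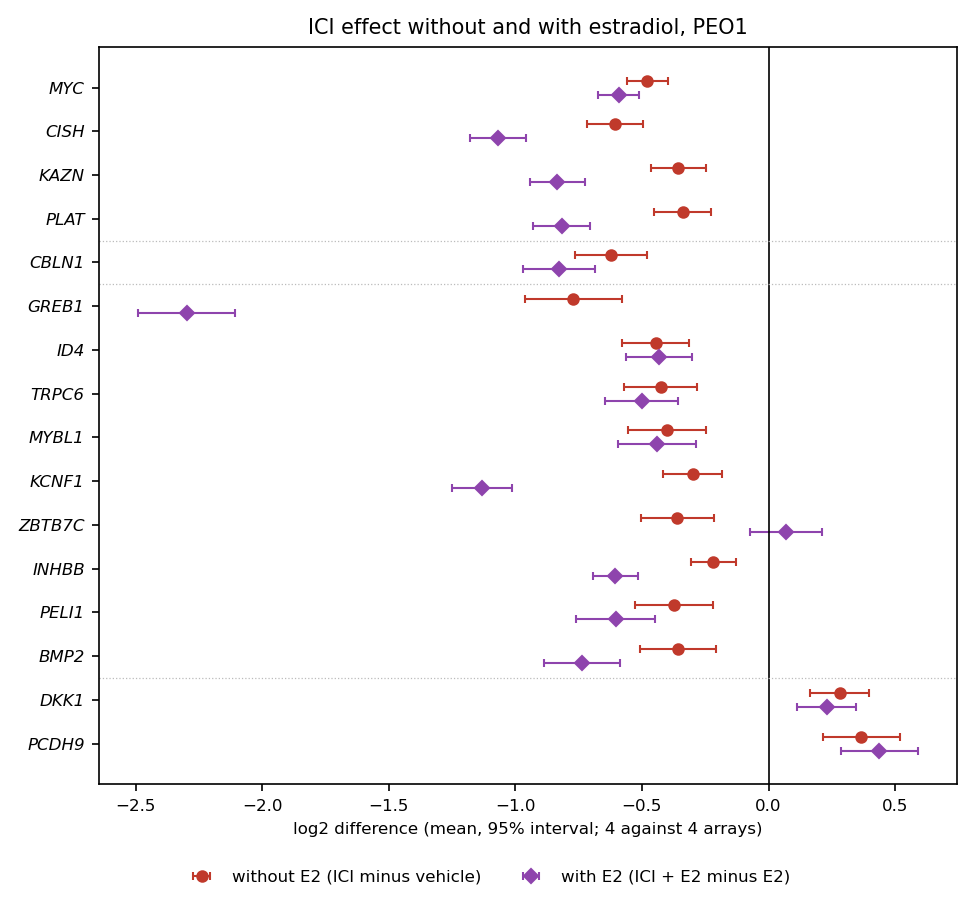
Log2 difference (x axis) made by ICI without E2 (ICI minus vehicle, red circles) and with E2 (ICI with E2 minus E2, purple diamonds) for the 16 called genes in PEO1, with 95% intervals of the limma fit (4 against 4 arrays). GREB1 moves from -0.77 to -2.30, while both points of ID4 lie near -0.4 and ZBTB7C is at 0.07 with E2.

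Most genes that ICI lowered with E2 present also had lower values with ICI alone. Of the 183 genes that ICI lowered in the presence of E2, 167 (91.3%) were below 0 in ICI minus vehicle, against 61.6% of all genes, and the median was -0.088, against -0.015. An unadjusted p under 0.05 and a lower value were found for 73 of them, against 3.3% of all genes. Without the 13 called genes the median of the other 170 was -0.079, and 154 were below 0. Of the 116 genes raised by ICI with E2, 8 (6.9%) were below 0 and the median was 0.078. SMAD7, SOCS2 and the kinase gene SIK1 are among these 116, with the values given above. E2 minus vehicle in PEO4, whose arrays are separate too, called 2.12% of genes, 1.66% higher and 0.46% lower. Of the 199 genes that E2 raised there, 9 were called lower and none higher in PEO1 with ICI. Over all genes 0.117% were called lower and 0.0167% higher. At an unadjusted p under 0.05, 45 of the 199 were lower and 2 higher, against 3.3% and 1.36% of all genes. The 2 were SIK1 (0.23) and IVL (0.16), so SIK1 was in both this group and the 116. Of the 199, 161 (80.9%) were below 0 and the median was -0.062. The 55 genes that E2 lowered there included DKK1 and PCDH9, and their median was 0.003.

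**Figure D4:**
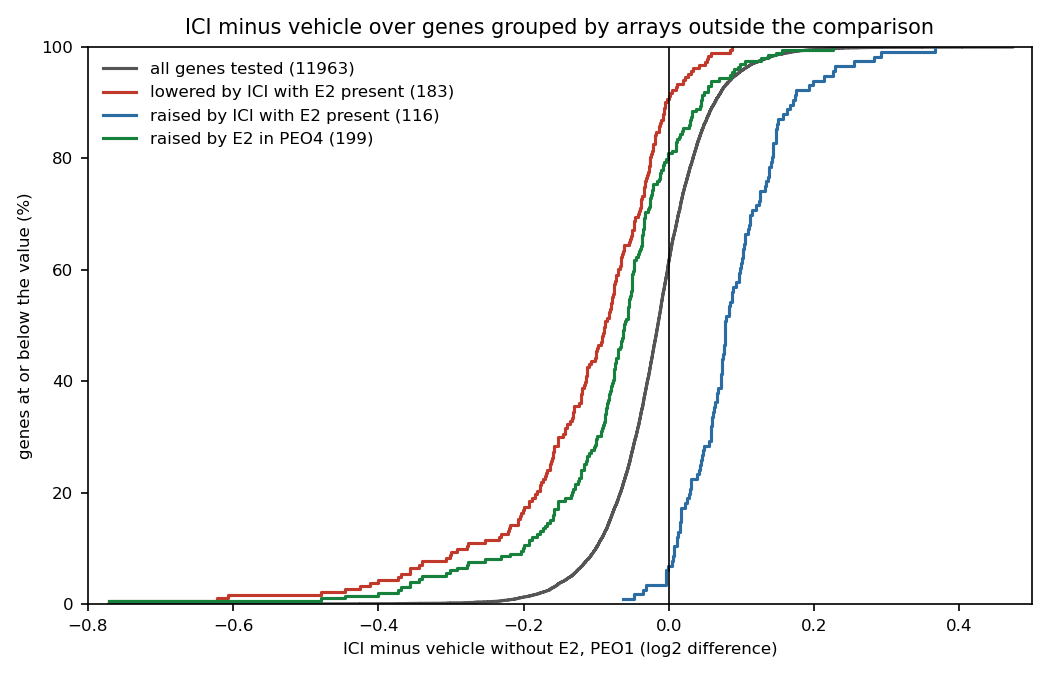
Cumulative share of genes (y axis, percent) at or below a given ICI minus vehicle difference in PEO1 without E2 (x axis, log2), for all 11963 genes (grey) and for genes grouped by arrays outside the comparison: 183 lowered (red) and 116 raised (blue) by ICI with E2 present, and 199 raised by E2 in PEO4 (green). The red and green curves lie to the left of the grey one, with medians of -0.088 and -0.062, and the blue one to the right, with a median of 0.078.

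4OHT, a non-steroidal antagonist where fulvestrant is a steroid, was given at the same dose and time and compared with ICI directly. The 2 sets of arrays differed in 448 genes (3.74%), 1.69% higher and 2.06% lower with 4OHT, among them 5 of the 16. The 16 were chosen by their values in these same ICI arrays. That favours higher values with 4OHT for genes that fell and lower ones for genes that rose, so the count is not a separate test. MYC was higher with 4OHT, at 12.16, 12.16, 12.00 and 12.05, than in any ICI array, by 0.34 ± 0.04 (adjusted p = 6.33e-06). BMP2 (0.42 ± 0.07, adjusted p = 0.000962), KCNF1 (0.39 ± 0.06, adjusted p = 9.77e-05) and CISH (0.23 ± 0.05, adjusted p = 0.0129) were higher too, and PCDH9 was lower (-0.30 ± 0.07, adjusted p = 0.0199). For GREB1 the difference was -0.06 (95% interval -0.25 to 0.13), with 4OHT values of 4.78 to 5.03. KLF4, just outside the calls for ICI, was higher with 4OHT by 0.53 ± 0.06 (adjusted p = 2.83e-06).

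In PEO4 the same ICI treatment called 19 genes (0.159%), 11 higher (0.092%) and 8 lower (0.0669%). None of the 14 genes that fell in PEO1 was called lower there by limma, and at an unadjusted p under 0.05 none was lower and 3 were higher. Of the 14, 3 were below 0, and KAZN was called higher (0.30 ± 0.06, adjusted p = 0.0335). The shares of all genes below 0 or at that unadjusted p were not computed in PEO4, so these counts only describe the 14. The test of the difference between the lines called 12 genes (0.1%), all with the higher value in PEO4. The 12 included 7 of the 14: KAZN (0.66 ± 0.08), MYBL1 (0.65 ± 0.10), PLAT (0.49 ± 0.07), CISH (0.55 ± 0.09), CBLN1 (0.69 ± 0.11), ID4 (0.50 ± 0.08) and GREB1 (0.77 ± 0.16). Their adjusted p-values ran from 1.08e-06 for KAZN to 0.0257 for GREB1. The 14 were chosen by their values in PEO1, which favours a difference in this direction. MYC had -0.18 ± 0.10 in PEO4, and the difference of 0.30 ± 0.11 was not called (adjusted p = 0.351).

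The lines also differed in array measures. ACTB 3′ minus 5′ values of the vehicle arrays were 0.24 to 0.57 in PEO4 and -0.12 to -0.11 in PEO1. Medians of these arrays were 7.87 to 7.90 and 7.43 to 7.49. The lines may have been normalized apart, so only differences within a line were compared. The effect of this on the line comparison was not tested. One PEO4 array, ICI replicate 1, had an ACTB 3′ minus 5′ value of 3.41, against 0.52 to 0.92 in the other 3 of its group. Without it GREB1 lost the call between the lines (0.75, adjusted p = 0.0673), MYC gained it (0.46, adjusted p = 0.000304), and KAZN was no longer called in PEO4 (0.24, adjusted p = 0.139). The other 6 differences between the lines were still called. CBLN1 had low PEO4 values, between 4.46 and 4.73 with vehicle.

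**Figure D5:**
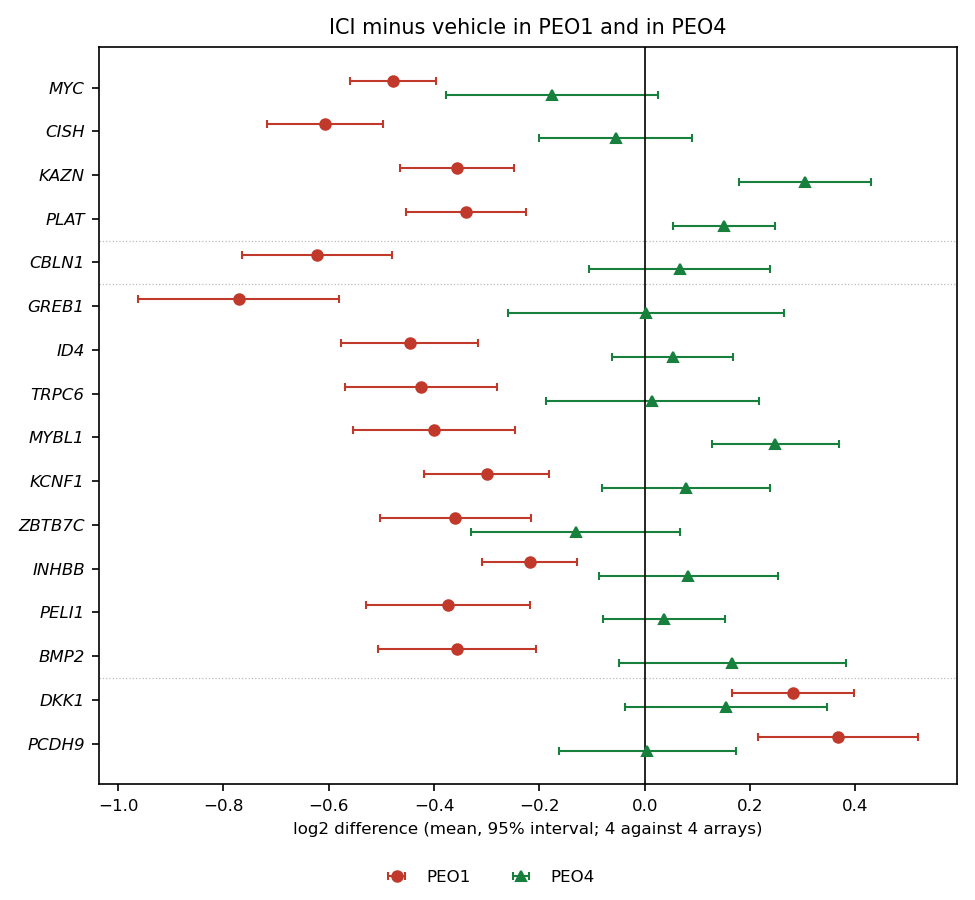
Log2 difference between ICI and vehicle without E2 (x axis) in PEO1 (red circles) and PEO4 (green triangles) for the 16 genes called in PEO1, with 95% intervals of the limma fits (4 against 4 arrays in each line). For GREB1 the PEO1 point is at -0.77 and the PEO4 point at 0.00, and for KAZN they are at -0.36 and 0.30.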

How the data were processed

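Labelled RNA from PEO1 and PEO4 cells was hybridised to Affymetrix arrays. The table deposited by the authors holds log2 values, and RMA is the tool in the submitters' processing notes, without a version. Raw scanner files were not used here. Of 22277 probe sets, 62 controls served as checks, and 19064 had 1 gene symbol in the platform annotation, 1043 several and 2108 none. Each of 11963 genes was represented by its brightest probe set, by the mean of 56 arrays.

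The model, in limma 3.58.1 (R 4.3.3), gave each of the 7 PEO1 groups its own mean over 28 arrays and left 21 residual degrees of freedom before moderation. Called genes had p-values under 0.05 after Benjamini-Hochberg adjustment across the whole table. The line difference used 1 fit over 56 arrays. The median SE of ICI minus vehicle was 0.063, and the number of arrays limits the precision. Named genes are all those called, the 10 next by p, 7 receptor and target genes fixed by name and up to 3 of each list, and the 5 with the smallest p among the genes E2 raised in PEO4 and among those ICI lowered with E2, beside markers given to check the cell type. The members and the 24 lists were chosen with earlier results of these data known. Alternatives were other variance models, a filter dropping the dimmest 40 percent of genes, other probe set rules, quantile normalization, a replicate block, array weights, only the compared groups, an ACTB covariate and leaving out each array.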

Additional observations from a re-analysis of the deposited data

Results flagged for a closer look

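The ICI response differed with and without E2 in PEO1 for 6 genes, by the interaction term of the limma fit: GREB1 (-1.53), KCNF1 (-0.83), PLAT (-0.48), KAZN (-0.48), CISH (-0.46) and INHBB (-0.39), in each case with the larger fall under E2. It differed between the lines for 7, with the higher value in PEO4: GREB1 (0.77), CBLN1 (0.69), KAZN (0.66), MYBL1 (0.65), CISH (0.55), ID4 (0.50) and PLAT (0.49).

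In groups of 4 arrays, single arrays stood apart from the other 3 by Dixon's criterion in 3 of 102 groups checked, where chance gives about 1 in 20. ZBTB7C was lowest in 0 h replicate B (4.04), and INHBB was lowest in ICI replicate D (10.73). The ACTB 3′ minus 5′ value of ICI replicate A was 0.038, above the other ICI arrays. INHBB was no longer called without ICI replicate D.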

How the results depend on the processing

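Of the 16 calls between ICI and vehicle, 6 held in every alternative in which they were fitted (MYC, CISH, CBLN1, GREB1, ID4 and TRPC6), 10 were lost in 1 or more, and 0 changed sign. The count of 16 became 33 with array weights (27 lower, 6 higher) and 8 with only the compared groups (8 lower, 0 higher). With all probe sets tested 0 genes were called higher. Leaving out single arrays gave 8 to 14 calls, with 8 to 13 lower and 0 to 1 higher. Vehicle minus 0 h kept 585 to 874 calls when single arrays were left out (418 to 658 higher, 132 to 225 lower), with the fewest without vehicle replicate C, and ICI minus 0 h kept 477 to 719 (336 to 486 higher, 141 to 233 lower), with the fewest without ICI replicate A. Quantile normalization raised the genes called lower to 346 for vehicle and 368 for ICI against 0 h, and array weights raised the latter to 404. The cause of these changes was not tested, except that fewer arrays were fitted where arrays were left out.

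The replicate letters showed little pairing by correlation. Deviations of the ICI and vehicle arrays with 1 letter correlated at -0.07 to 0.22, and 1 of 4 correlated best with its own letter. For ICI and 0 h arrays the range was -0.07 to 0.25, and replicates B and D correlated best with their own letter. Weak correlations do not show that the letters carry no pairing. A replicate block gave 17 calls, 15 lower and 2 higher, with FLG added, and between the lines it added PELI1 (0.41). It changed no other call named in the text. GREB1, TRPC6, ZBTB7C and PCDH9 lay among the dimmest 40 percent of genes and were not fitted under that filter.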
